A study of Mus musculus with 8 samples.

Results

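The genes described here are the nuclear-encoded genes of the mitochondrial respiratory chain in mouse bone. They were taken from the count matrices by symbol, as every gene whose symbol begins with Nduf, Uqcr, Atp5, Sdha, Sdhb, Sdhc, Sdhd, Cox4i, Cox5, Cox6, Cox7 or Cox8, pseudogenes marked -ps left out, with at least 100 unique molecular identifiers (UMIs, 1 per captured RNA molecule) summed over the 8 libraries. Of 32285 genes in the matrices, 97 carried such a symbol and 95 reached the limit. *Cox6a2* with 144 UMIs was just inside it, *Cox8b* came next with 610 UMIs, and *Cox7b2* with 41 UMIs and *Cox8c* with 35 UMIs were outside. By symbol, 38 of the 95 belonged to complex I, 4 to complex II, 8 to complex III, 16 to complex IV and 17 to complex V, the ATP synthase. The same prefixes brought in 8 *Ndufaf* genes, which encode assembly factors of complex I, and 4 *Sdhaf* genes, which encode assembly factors of complex II.

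The respiratory chain passes electrons from NADH and succinate to oxygen through complexes I to IV and uses the resulting proton gradient to make ATP in complex V. Most of its subunits are encoded in the nucleus and imported, whereas a small core is encoded by the mitochondrial genome, whose messenger RNAs carry the prefix mt-. A few subunits exist as alternative isoforms that replace the common one in particular tissues or at low oxygen, and osteoblasts and growth plate chondrocytes are known to draw on glycolysis beside respiration.

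The cells came from bones of female mice, 1 library per mouse and 2 mice per group. Mutants were *SOXC* OsxCre mice, which carry fl/fl alleles of *Sox4*, *Sox11* and *Sox12* together with the *OsxCre* transgene, and controls carried the same floxed alleles without Cre, at 7 or 13 weeks of age. The promoter of *Sp7* (*Osx*), a gene of osteoblasts and their precursors, drives Cre in this transgene, and tetracyclines switch it off. Doxycycline in the diet held it off until these mice reached weaning age. Haematopoietic cells were depleted with antibodies and magnetic beads before capture, so the haematopoietic and erythroid cells described here are those that escaped depletion. Cells were clustered here, and each cluster was called X-like from fixed marker genes, none of which is a respiratory chain gene.

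The 8 libraries held 81894604 to 156090286 UMIs in 105359 barcodes, of which 59629 cells were kept. Of 42 clusters, 32 could be named, giving 14 types, and 12 of these were compared throughout, each with at least 10 cells in every mouse. OB-like cells were the most numerous type with 24378 cells, *Lepr*+ MSC-like cells numbered 4235, preOB-like cells 1937, hypertrophic GPC-like cells 2070, pericyte-like cells 1015 and erythroid-like cells 1507. Replicate 1 was the deeper library of each group, and between 7.99 and 25.7% of a library's cells lay in unnamed clusters. Pairs of libraries shared 9 to 24 cell barcodes, at most 0.300% of the smaller library. One library stood apart: replicate 2 of the 13-week mutants had the lowest share of mt- UMIs in 13 of the 14 types, and only 19 pericyte-like cells. In those 19 cells OB markers summed to 101500 CPM, against 5126 to 22680 CPM in the pericyte-like cells of the other 7 mice, and pericyte markers to 14620 CPM, against 26890 to 33140 CPM, so the main values in pericyte-like cells are also given without that library. The floxed gene followed its label, with *Sox4* at 179 to 202 CPM (UMIs scaled to a common total per library and cell type) in osteoblast-like (OB-like) cells of the 4 controls and 50.1 to 78.8 CPM in those of the 4 mutants (log2 difference −1.58, adjusted p = 0.000847 by edgeR's quasi-likelihood test). *Sox12* was lower as well in OB-like cells (2.19 CPM in controls and 0.503 CPM in mutants on average, adjusted p = 0.00269), and *Sox11* had only 34 UMIs there and was not tested.

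The 95 genes together took up between 1.5 and 3.37% of all UMIs, depending on the cell type (control means, n = 4 mice). Erythroid-like cells stood at the top with 3.37% ± 0.178 (SD), followed by granulocyte- or monocyte-like cells at 2.31% ± 0.167, pericyte-like cells at 2.27% ± 0.15 and haematopoietic progenitor-like cells at 2.26% ± 0.0594. The last 3 did not differ beyond their spread. In the osteoblast lineage, *Lepr*+ mesenchymal stem cell-like (*Lepr*+ MSC-like) cells held 1.51% ± 0.0937, *Lepr*+ osteoprogenitor-like (*Lepr*+ OP-like) cells 1.68% ± 0.0896, preosteoblast-like (preOB-like) cells 1.81% ± 0.0931 and OB-like cells 1.6% ± 0.111. Proliferating preOB-like cells were above all of these, at 2.07% ± 0.181. Growth plate chondrocyte-like (GPC-like) cells stood at 1.76% ± 0.213, hypertrophic GPC-like cells at 1.54% ± 0.201 and endothelial-like cells at 1.5% ± 0.119, and neighbours among these lower types overlapped within 1 SD.

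The mt- genes followed another order. They were highest in *Lepr*+ OP-like cells, at 6.25% ± 0.178 of UMIs in controls, and in pericyte-like cells, at 5.89% ± 0.512, and lowest in haematopoietic progenitor-like cells, at 3.69% ± 0.264, and granulocyte- or monocyte-like cells, at 3.56% ± 0.440. The erythroid-like cells, with the most nuclear-encoded transcripts, held 4.01% mt- UMIs. As a result, mt- UMIs outnumbered those of the 95 genes 1.19-fold in erythroid-like cells and 3.72-fold in *Lepr*+ OP-like cells. Across the 12 types the 2 levels had a Pearson r of −0.254 and a Spearman rho of −0.224, and across the 9 types outside the haematopoietic and erythroid ones an r of 0.539 and a rho of 0.65, both given as descriptions because all types share libraries and a common UMI total. Cells with over 10% mt- UMIs had been removed, so mt- levels have a ceiling set by that filter. With a limit of 5% the order changed, to 4.01% in GPC-like, 3.95% in hypertrophic GPC-like and 3.87% in both *Lepr*+ OP-like and pericyte-like cells.

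**Figure D1:**
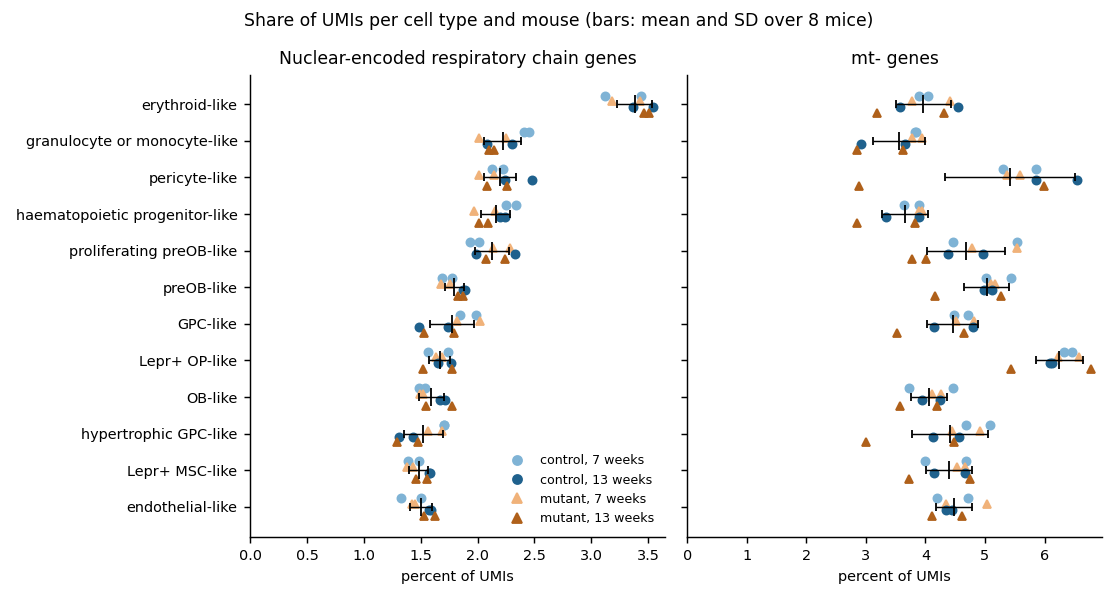
Share of UMIs from the 95 nuclear-encoded respiratory chain genes and from the 13 mt- genes in each cell type, as percent of all UMIs, 1 point per mouse by genotype and age, with the mean and SD over 8 mice as bars. Erythroid-like cells were highest for the nuclear-encoded genes (3.37% in controls), and *Lepr*+ OP-like and pericyte-like cells for the mt- genes (6.25 and 5.89%).

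Most subunits shared the type with the highest level. In controls, 73 of the 95 genes were highest in erythroid-like cells and 8 in pericyte-like cells. The lowest level lay in endothelial-like cells for 23 genes, in *Lepr*+ MSC-like cells for 17 and in OB-like cells for 12. The same counts over all genes are not given here, so they cannot be read as particular to the chain. These are CPM, and the top 20 genes took up 13.7% of UMIs in erythroid-like cells and 43.5% in OB-like cells. The part of that difference was not tested. The median gene differed 2.97-fold between its highest and lowest type. Of the 13 mt- genes, 7 were highest in *Lepr*+ OP-like cells and 5 in pericyte-like cells, with a median difference of 1.86-fold.

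Core subunits show the range of levels, in control means. *Ndufs1*, the large iron-sulphur subunit of complex I, went from 80.9 CPM in erythroid-like to 16.2 CPM in hypertrophic GPC-like cells, and *Ndufv1*, which carries the NADH site, from 214 to 41.6 CPM between the same types. *Sdha*, the flavoprotein of complex II, ranged from 142 CPM in erythroid-like to 42.7 CPM in OB-like cells. The Rieske iron-sulphur protein gene *Uqcrfs1* of complex III ranged from 269 CPM in erythroid-like to 57.6 CPM in *Lepr*+ MSC-like cells. These subunits thus shared a highest type but not a lowest one. In complex IV, *Cox5a* went from 665 CPM in erythroid-like to 142 CPM in *Lepr*+ MSC-like cells, while *Cox6c* varied less, from 811 to 433 CPM, with its minimum in endothelial-like cells. In complex V, *Atp5b*, the catalytic beta subunit, ranged from 1216 CPM in erythroid-like to 278 CPM in hypertrophic GPC-like cells. The mt- partners did not peak in the same cells, since mt-Co1 was highest in hypertrophic GPC-like cells at 8170 CPM and mt-Cytb in *Lepr*+ OP-like cells at 8825 CPM.

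OB-like cells formed 10 clusters, and respiratory chain levels differed among them. In 9 clusters the 95 genes took up 1.24 to 1.90% of UMIs. The remaining cluster, of 1817 cells led by *Col22a1* and *Col1a1*, held 0.596%, with 92 of the 95 genes below their level in the other OB-like clusters (median ratio 0.364) and all 13 mt- genes above it (median ratio 1.77). Its mt- share was 6.80%, its median depth was 70.3% of its libraries' median, ribosomal protein genes made up 3.57% of its UMIs against 10.4% elsewhere, and the nuclear transcript *Malat1* was at 43720 CPM against 14270 CPM. Whether these values move with the condition of the cells was not tested.

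Of the 95 genes, 7 differed over 10-fold between their highest and lowest type, the complex I assembly factor *Ndufaf6* and 6 alternative isoforms, *Ndufa4l2*, *Cox4i2*, *Cox6b2*, *Cox6a2*, *Cox7a1* and *Cox8b*. Shares are given within a gene family, as means ± SD over the 8 mice; the 3' UMI counts give 1 UMI per molecule whatever its length. *Ndufa4l2*, on chromosome 10 (chr10:127514967-127517154, plus strand, GRCm38), encodes a paralog of NDUFA4 that is known to be induced by low oxygen; NDUFA4 itself was first assigned to complex I and is known to act with complex IV. In pericyte-like cells *Ndufa4l2* averaged 926 CPM and made up 83.7% ± 9.77 of the UMIs of the pair. Its level was 658, 1415, 697 and 924 CPM in the 4 controls and 920, 1497, 931 and 368 CPM in the 4 mutants, in both cases the 7-week mice first and then the 13-week mice. Without replicate 2 of the 13-week mutants the mean was 1006 CPM and the share 86.1% ± 7.50 (n = 7). Every mouse was thus far above any other type, where the means ran from under 1 CPM in erythroid-like cells to 68.6 CPM in GPC-like cells, 29.1 CPM in OB-like cells and 24.3 CPM in preOB-like cells. *Ndufa4*, the common paralog, showed the reverse order in pericyte-like cells, where its control mean of 165 CPM was its lowest, against 759 CPM in erythroid-like cells.

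*Cox4i2*, on chromosome 2 (chr2:152754173-152765037, plus strand, GRCm38), encodes the alternative form of COX4, the regulatory subunit of complex IV, and is known from pericytes and oxygen-sensing cells. It averaged 388 CPM in pericyte-like cells, or 29.8% ± 7.59 of *Cox4* UMIs (421 CPM and 32.3% ± 3.38 without replicate 2 of the 13-week mutants), and 294 CPM in GPC-like cells, or 28.9% ± 6.32. Hypertrophic GPC-like cells had 122 CPM and proliferating preOB-like cells 76.9 CPM. In the osteoblast lineage it was at 38.2 CPM in *Lepr*+ MSC-like and 52.5 CPM in *Lepr*+ OP-like cells. It was at 18.5 CPM in cells of the preOB-like class and 4.80 CPM in OB-like ones, where the isoform made up 0.663% of *Cox4* UMIs. The preOB-like value joined 2 clusters, 1 of 431 cells at 47.9 CPM, near the level of *Lepr*+ OP-like cells, and 1 of 1506 cells at 12.2 CPM. The smaller cluster scored 3.99 for preOB markers and 3.88 for osteoprogenitor markers, so it lay near the limit between the names. *Cox4i1*, the common form, stayed between 640 and 1254 CPM in control means.

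The pericyte-like cells consisted of 2 clusters that differed in both isoforms. The cluster led by *Rgs5* and *H2-M9* had 1375 CPM *Ndufa4l2* and 587 CPM *Cox4i2*, and the one led by the contractile genes *Acta2*, *Tagln* and *Myh11* had 480 and 215 CPM.

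*Cox6b2*, on chromosome 7 (chr7:4751792-4753094, minus strand, GRCm38), encodes an alternative form of COX6B. It averaged 255 ± 36.3 CPM in erythroid-like cells, 132 ± 20.9 CPM in haematopoietic progenitor-like cells and 82.4 CPM in granulocyte- or monocyte-like cells. It was at 18.7 CPM in pericyte-like, 13.0 CPM in *Lepr*+ MSC-like and 1.25 CPM in OB-like cells. Its share of *Cox6b* UMIs was 28.4% ± 2.08 in erythroid-like and 26.4% ± 2.855 in haematopoietic progenitor-like cells. The share was 26.6% ± 2.94 in proliferating haematopoietic-like and 17.5% ± 2.215 in granulocyte- or monocyte-like cells. The 8 mice spanned 211 to 308 CPM in erythroid-like cells. The 3 *Atp5g* genes encode the same mature c subunit of complex V from different precursors. *Atp5g1* made up 48.8% ± 1.42 of their UMIs in erythroid-like cells and 23.9% in endothelial-like to 39.4% in preOB-like cells. *Atp5g2* took its largest share, 53.2%, in proliferating preOB-like cells, and *Atp5g3* ranged from 15.4% in GPC-like to 29.7% in *Lepr*+ MSC-like cells.

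The isoforms known from heart and skeletal muscle were rare. *Cox7a1* had its highest mean, 4.73 CPM from 22 UMIs, in pericyte-like cells. *Cox6a2* had 58 UMIs in granulocyte- or monocyte-like cells and 14 in the far more numerous OB-like cells. *Cox8b* had 406 UMIs in OB-like cells, 49 in GPC-like cells, 20 in hypertrophic GPC-like cells, and 0 in *Lepr*+ MSC-like cells, which allows up to 0.122 CPM there, a limit that covers counting error only. Within OB-like cells it was concentrated in the cluster led by *Ptprz1* and *Phex*, at 13.2 CPM.

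**Figure D2:**
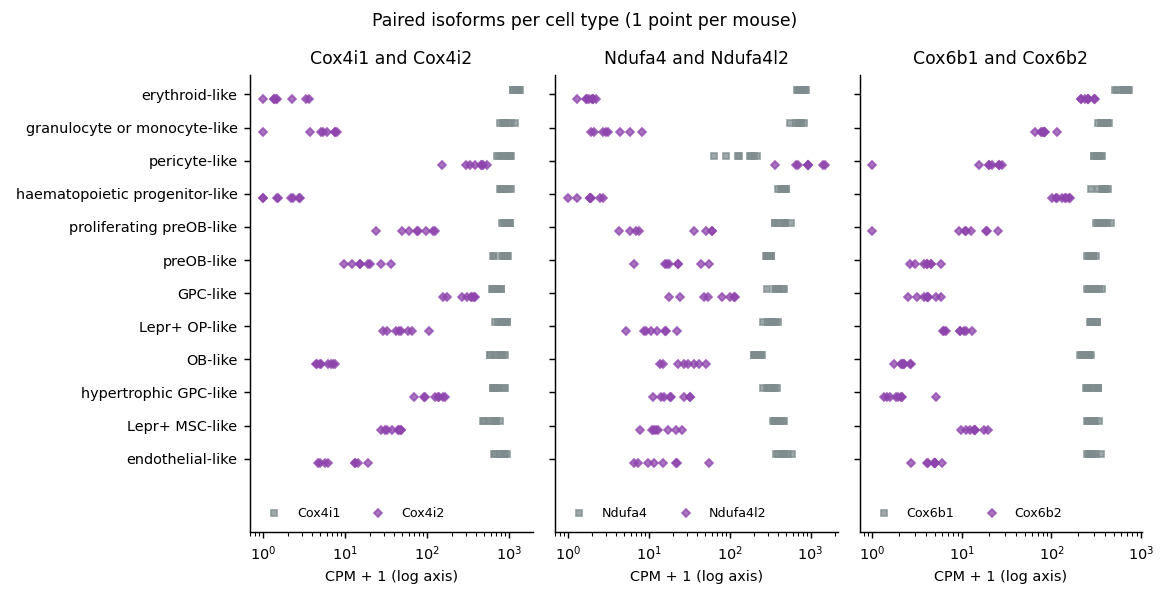
Level of each alternative isoform and of its common paralog by cell type, as CPM + 1 on a log axis, 1 point per mouse. *Ndufa4l2* lies above *Ndufa4* in pericyte-like cells only (83.7% of the pair's UMIs). *Cox4i2* comes nearest to *Cox4i1* in pericyte-like and GPC-like cells (29.8 and 28.9%), and *Cox6b2* to *Cox6b1* in erythroid-like and haematopoietic progenitor-like cells (28.4 and 26.4%).

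The named cell types include neighbours in the osteoblast and growth plate lineages, which were compared within each mouse. Pericyte-like and endothelial-like cells were compared in the same way. Both types of a pair come from the same library, so rose and fell mean a higher or lower level in the second type. The test was edgeR's quasi-likelihood test on counts summed per mouse and type, with the mouse as a block, TMM scaling (trimmed mean of M values) and a threshold of adjusted p ≤ 0.05. All steps share the same 8 libraries. TMM sets the median gene near a log2 difference of 0, whereas CPM depends on the share of UMIs that abundant transcripts take. The top 20 genes made up 18.9% of UMIs in *Lepr*+ OP-like cells but 30.1% in preOB-like cells and 43.5% in OB-like ones. The direction depended on the scaling for some steps, and both values are given. The part of the abundant transcripts in that dependence was not tested.

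From *Lepr*+ MSC-like to *Lepr*+ OP-like cells, 50 of 92 tested genes rose and 3 fell, where 47.4% of all genes were called, 23.7% in each direction. The median log2 difference of the 92 was 0.174, against 0.0113 for all genes, and 0.162 against 0.0005 with library size alone. *Sdhb*, the iron-sulphur subunit of complex II, rose by 0.49 (SE 0.0584, adjusted p = 3.223e-06), from 78.0 to 109 CPM, in 8 of 8 mice. *Atp5g2* rose by 0.47 and *Ndufa12* by 0.46. The 3 that fell were *Cox6b2* (−0.67), *Ndufs4* (−0.29) and *Ndufa4* (−0.27). All 13 mt- genes rose in this step.

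From *Lepr*+ OP-like to preOB-like cells, 79 of 92 genes rose and 2 fell with TMM scaling (60.4% of all genes called, 30.1% higher and 30.3% lower), with a median of 0.491 against −0.0150 for all genes. With library size alone, 34 rose and 19 fell, where 11.9% of all genes were called higher and 64.7% lower. The median was then 0.0614 against −0.445 for all genes, so the genes stood 0.506 and 0.507 above the median gene under the 2 scalings. *Atp5g1* rose from 234 ± 46.6 to 361 ± 51.6 CPM (log2 difference 1.06, adjusted p = 9.932e-11), *Atp5e*, which encodes the epsilon subunit of complex V, from 613 to 926 CPM (1.01), and *Ndufa1* from 157 to 230 CPM (0.98). Each was higher in all 8 mice. Every tested complex I, III and V subunit that was called rose, 36 of 38, 8 of 8 and 17 of 17, while only 2 of 8 complex I assembly factors were called. The largest rise was that of *Ndufa4l2* (1.44, SE 0.161, adjusted p = 2.267e-07), and the 2 genes that fell were both alternative isoforms, *Cox4i2* (−1.08) from 52.5 to 18.5 CPM (47.9 and 12.2 CPM in the 2 preOB-like clusters) and *Cox6b2* (−0.996). Of the 13 mt- genes 5 rose with TMM scaling, and 13 fell with library size alone.

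Genes of neighbouring pathways gave other counts in this step with TMM scaling. Of 14 tricarboxylic acid cycle genes 9 rose and none fell (median 0.327), of 15 glycolysis genes 9 rose and 3 fell (0.321), of 26 other respiratory chain and assembly genes 12 rose and 1 fell (0.255), and of 9 genes of mitochondrial biogenesis 3 rose and 1 fell (−0.172).

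Sequences before the RefSeq start are shown for 3 of the genes of this step because they hold the palindromic consensus of NRF1, a transcription factor known for its sites in respiratory chain promoters; its letters are the first capitals in each line. The 250 bases upstream of the RefSeq start (GRCm38.p6) could be read for 78 of the 95 genes. The NRF1 letters, read on both strands, were found in 5 of the 78 (6.41%) and in 0.781% of 27025 promoters, and the ETS letters CCGGAAG in 15 (19.2%) and 7.05%. The 5 genes were *Atp5g2*, *Atp5k*, *Cox6a1*, *Ndufa11* and *Ndufaf4*. With TMM scaling all but *Ndufaf4* (0.24, adjusted p = 0.0682) rose from *Lepr*+ OP-like to preOB-like cells, by 0.68, 0.39, 0.90 and 0.56 in that order. So did 79 of the 92 tested genes of the chain, so these rises are not particular to genes with the letters. With library size alone the median of the 92 was 0.0614 instead of 0.491, and the values of these 5 genes are not given here. Capitals mark the NRF1 letters and, in *Cox6a1* nearer its start, the ETS letters on the opposite strand; the sequences are chr15:102671048-102671297, chr5:108434400-108434649 and chr5:115348959-115349208, all on the minus strand. These starts differ from the ends of the annotated GENCODE genes, so the windows of *Atp5k* and *Cox6a1* reach into the 5' end of the gene and that of *Atp5g2* lies inside the gene (chr15:102662864-102672352). A match describes the letters of this window and is no measurement of binding.

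Atp5g2: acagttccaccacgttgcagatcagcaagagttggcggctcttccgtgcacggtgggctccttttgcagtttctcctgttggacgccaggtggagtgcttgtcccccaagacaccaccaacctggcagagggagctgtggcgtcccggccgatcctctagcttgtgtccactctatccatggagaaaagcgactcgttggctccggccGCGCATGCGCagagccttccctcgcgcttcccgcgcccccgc
Atp5k: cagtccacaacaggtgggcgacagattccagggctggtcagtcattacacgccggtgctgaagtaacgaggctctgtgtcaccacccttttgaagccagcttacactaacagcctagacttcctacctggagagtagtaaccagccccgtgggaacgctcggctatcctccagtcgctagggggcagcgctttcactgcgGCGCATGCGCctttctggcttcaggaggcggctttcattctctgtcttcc
Cox6a1: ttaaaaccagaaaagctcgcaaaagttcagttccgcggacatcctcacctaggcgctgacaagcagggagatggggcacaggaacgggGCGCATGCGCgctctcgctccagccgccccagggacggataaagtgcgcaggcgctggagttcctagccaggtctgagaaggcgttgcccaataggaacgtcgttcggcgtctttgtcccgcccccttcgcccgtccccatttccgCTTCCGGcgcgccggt

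From preOB-like to OB-like cells the call of direction rested on the scaling. With TMM, 66 of 93 genes rose and 6 fell (46.9% of all genes called, 23.6% higher and 23.3% lower), with a median of 0.191. With library size alone, 5 rose and 68 fell, where 6.26% of all genes were called higher and 64.5% lower. The median was then −0.187 against −0.394 for all genes. Relative to the median gene the members stood 0.201 and 0.207 higher. In CPM, 2 genes were higher in OB-like cells in every mouse and 48 were lower, and the same count over all genes is not given here. One of the 2 was *Sdhaf4*, an assembly factor of complex II, which went from 29.6 ± 4.90 to 37.2 ± 5.53 CPM and rose under both scalings (0.71 with TMM, adjusted p = 4.144e-09). *Cox4i2* fell further under either scaling, from 18.5 CPM, or 12.2 CPM in the larger preOB-like cluster, to 4.80 CPM (−1.55 with TMM, adjusted p = 1.896e-07). *Cox6c*, a common subunit of complex IV, shows the dependence: at 565 CPM in preOB-like and 506 CPM in OB-like cells, it was lower in CPM in all 8 mice and higher by 0.21 with TMM.

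Hypertrophic GPC-like cells had lower levels than GPC-like cells. With TMM, 50 of 92 genes fell and 6 rose (60.5% of all genes called, 29.3% higher and 31.1% lower), with a median of −0.141 against −0.0262 for all genes. With library size alone 75 fell and 2 rose (42.4% of all genes lower and 21.4% higher), with a median of −0.281 against −0.166 for all genes. *Cox4i2* fell from 294 ± 87.8 to 122 ± 33.9 CPM (−1.11, SE 0.0659, adjusted p = 1.083e-09) and *Ndufa4l2* from 68.6 ± 39.0 to 20.4 ± 8.28 CPM (−1.48), each in 8 of 8 mice. *Atp5g1* was among the common subunits that fell, by 0.49 on the log2 scale. The 2 that rose under both scalings were *Cox6c*, from 502 to 698 CPM (0.62), and *Cox7a2l*, known for its part in joining complexes into supercomplexes, from 185 to 239 CPM (0.50). Of 14 tricarboxylic acid cycle genes 8 fell and 1 rose, and of 16 glycolysis genes 9 fell and 2 rose.

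Pericyte-like cells exceeded endothelial-like cells for most of the chain. With TMM, 79 of 87 genes were higher and 3 lower (59.4% of all genes called, 29.4% higher and 30% lower), with a median of 0.731. With library size alone 71 were higher and 5 lower (21.8% of all genes higher and 41.6% lower), with a median of 0.512 against −0.24 for all genes. *Ndufa4l2* was 74.8-fold higher (log2 6.23, SE 0.351, adjusted p = 5.293e-11), at 926 against 17.8 CPM, and *Cox4i2* 56.5-fold (5.82, SE 0.245), at 388 against 9.18 CPM. Without replicate 2 of the 13-week mutants 81 were higher, with a median of 0.732, and *Ndufa4l2* differed by 6.27. The share of all genes called in that fit is not given here. With the 5% mt- limit *Ndufa4l2* differed by 6.86 and *Cox4i2* by 6.74. Most of the endothelial-like level lay in the cluster of 833 cells, where *Rgs5* was at 1328 CPM. It had 61.5 CPM *Ndufa4l2* and 30.6 CPM *Cox4i2*, against 1.47 and 1.58 CPM *Ndufa4l2* and 2.03 and 2.79 CPM *Cox4i2* in the other 2 clusters; the folds were not fitted without it. Among common subunits, *Cox8a* differed by 1.45 and *Ndufb10* by 1.31. The 3 that were lower were *Ndufa4* (−1.49), at 149 against 470 CPM, *Ndufa8* (−0.42) and *Cox7a2l* (−0.34). *Ndufa4* and its paralog thus had opposite directions in the same cells.

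**Figure D3:**
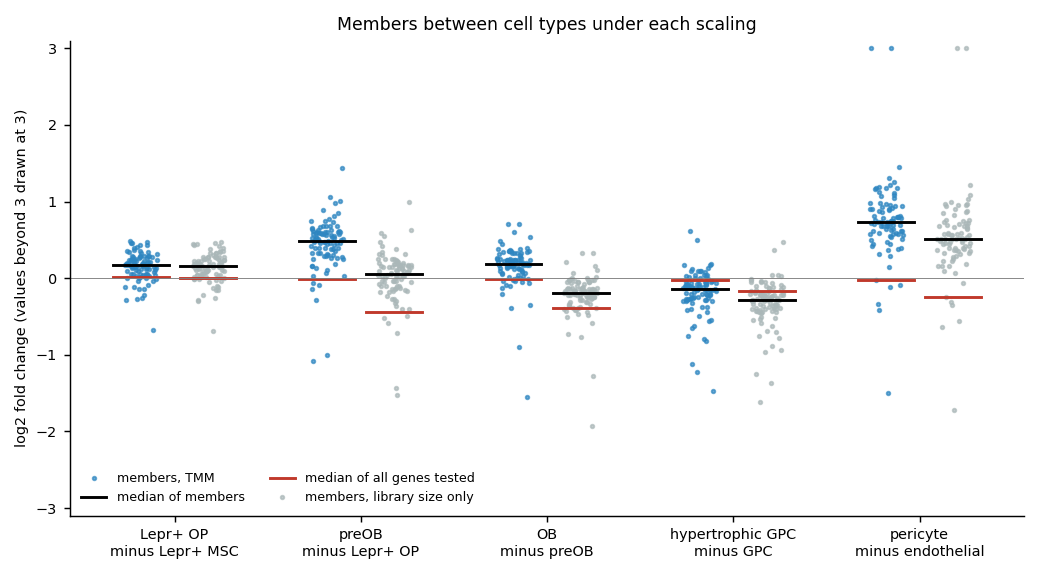
Log2 difference of each tested gene of the chain in the 5 comparisons of neighbouring cell types, with TMM scaling beside library size only, values beyond 3 drawn at 3; black bars are medians of these genes and red bars medians of all genes tested. The black bar stands above the red one under both scalings in 4 comparisons and below it from GPC-like to hypertrophic GPC-like cells.

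Between mutants and controls few genes of the chain were called, and *Ndufa4l2* was the one with the largest difference, in OB-like and preOB-like cells. Mutants were compared with controls of the same age and the 2 ages averaged, with 4 mice per genotype. In OB-like cells 2 of 94 tested genes were called, both higher, where 1.39% of all genes were called. *Ndufa4l2* stood at 22.0 and 26.3 CPM in the 7-week controls, 41.4 and 50.5 CPM in the 7-week mutants, 12.9 and 14.0 CPM in the 13-week controls and 35.5 and 29.9 CPM in the 13-week mutants. All 4 mutants were above all 4 controls. The difference was 1.21 on the log2 scale (2.31-fold, SE 0.108, adjusted p = 0.0011). It was also called at each age alone, at 1.01 for 7 weeks (adjusted p = 0.0419, 0.152% of all genes called) and 1.41 for 13 weeks (adjusted p = 0.0107, 0.256%). All 16 alternative settings kept the call, with differences of 1.10 to 1.30. The mutant mean was higher in each of the 10 OB-like clusters, and mutants and controls did not overlap at either age in 9 of them.

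*Cox4i2* was the other gene. It measured 3.61, 3.96, 4.12 and 3.37 CPM in controls and 5.73, 5.11, 6.07 and 6.46 CPM in mutants, 7 weeks before 13 weeks, without overlap. The difference was 0.73 (SE 0.123, adjusted p = 0.0205), and 6 of the 8 fits that each left out 1 mouse lost the call (0.66 to 0.75, adjusted p up to 0.0794), all but those without replicate 1 of the 13-week controls or replicate 2 of the 7-week mutants. The common paralogs *Ndufa4* and *Cox4i1* differed by 0.08 and 0.10 (adjusted p = 0.869 and 0.893). *Cox4i1* followed the replicate number, at 582 to 718 CPM in the 4 libraries numbered 1 and 787 to 881 CPM in the 4 numbered 2. *Cox8b* was at 0.463, 0.543, 1.09 and 0.400 CPM in controls and 1.39, 1.17, 1.49 and 1.68 CPM in mutants from 406 UMIs in all, a log2 difference of 1.29 with an adjusted p of 0.0658. With the replicate number as a block, 9 genes of the chain were called in OB-like cells (8.54% of all genes), *Cox8b* (1.32) among them.

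Because *Ndufa4l2* and *Cox4i2* are abundant in pericyte-like cells and *Cox4i2* in GPC-like cells, markers of both types were followed in OB-like cells. The 12 pericyte markers summed to 42.5 to 59.7 CPM in controls and 39.7 to 50.8 CPM in mutants, with 1 called (*Rgs4*, lower in mutants), and *Rgs5*, the leading marker, averaged 3.83 CPM in controls and 2.76 CPM in mutants. The 12 GPC markers, none of them called, summed to 4105 to 5234 CPM in controls and 2159 to 3706 CPM in mutants at 7 weeks, and to 4609 to 6274 CPM and 3654 to 4550 CPM at 13 weeks. The GPC markers were lower in mutants without overlap at either age. At 7 weeks the 15 OB markers summed to 103300 to 130000 CPM in controls and 122500 to 160700 CPM in mutants, with overlap. At 13 weeks they summed to 111700 to 133500 CPM and 139900 to 196500 CPM, without overlap, and 0 of 15 were called. The part of any of these markers in the differences was not tested. Of 10 genes on a list of low-oxygen response genes none was called between genotypes in OB-like cells by edgeR (median 0.0211), nor was any of 15 glycolysis genes, 14 tricarboxylic acid cycle genes or the 13 mt- genes. At an unadjusted p under 0.05 there were 1, 2, 1 and 0 in these lists, and DESeq2 called 1 glycolysis gene and none of the others. The median over the 94 genes was 0.0866 with TMM, 83 of them positive, against −0.0006 for all genes. With library size alone it was −0.0135 against −0.103 for all genes.

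In preOB-like cells *Ndufa4l2* was the only one of 92 genes called (0.528% of all genes). Controls had 14.7 and 21.8 CPM at 7 weeks and 5.60 and 16.0 CPM at 13 weeks, and mutants 42.8 and 54.5 CPM and 16.9 and 22.0 CPM. The groups did not overlap at either age, though they did across ages. The preOB-like cluster of 1506 cells had 15.9 CPM in controls and 38.1 CPM in mutants, each mutant above the control of its age and number, while the cluster of 431 cells had 7.57 and 12.6 CPM from 43 UMIs, with 2 of 4 mutants higher and overlap. The difference was 1.37 (2.58-fold, SE 0.244, adjusted p = 0.013). Without 1 mouse it ranged from 0.93 to 1.65 and lost the call in 4 of 8 fits, those without replicate 1 of the 7-week controls (1.23), replicate 1 of the 13-week controls (0.93), or replicate 1 or 2 of the 13-week mutants (1.48 and 1.28). OB markers in preOB-like cells summed to 26860 to 33480 CPM in controls and 48800 to 65880 CPM in mutants at 7 weeks. At 13 weeks they summed to 42950 to 55080 CPM and 70190 to 90170 CPM. Neither age had overlap, 2 of 15 were called, and their part in the difference was not tested.

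Earlier cells of the lineage had values on the same side that did not pass. In *Lepr*+ OP-like cells *Ndufa4l2* was at 8.26, 11.9, 7.65 and 4.24 CPM in controls and 15.5, 21.2, 9.63 and 14.9 CPM in mutants (0.95, adjusted p = 0.135), and *Cox4i2* at 41.3, 57.7, 27.9 and 31.4 CPM in controls and 64.9, 105.5, 47.1 and 44.0 CPM in mutants (0.71, adjusted p = 0.113). Both were called with the replicate block (0.93 and 0.69), the only 2 of 92 genes that were, with 4.75% of all genes. OB markers in the same cells, none of them called between genotypes, summed to 6336 to 6666 CPM in controls and 9651 to 11270 CPM in mutants at 7 weeks, and to 9918 to 14560 CPM and 12390 to 20900 CPM at 13 weeks, and their part was not tested. In *Lepr*+ MSC-like cells the differences were 0.81 for *Ndufa4l2* (adjusted p = 0.231) and 0.38 for *Cox4i2* (adjusted p = 0.765). In GPC-like cells, by contrast, *Ndufa4l2* was at 116, 101, 17.1 and 111 CPM in controls and 79.8, 52.9, 23.7 and 46.9 CPM in mutants (−0.76, adjusted p = 1), and in pericyte-like cells the difference was 0.00 (SE 0.307), or 0.18 (SE 0.261, adjusted p = 0.999) without replicate 2 of the 13-week mutants. That the effect differs between cell types was not tested.

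In the remaining 10 types no member was called between genotypes by edgeR without the replicate block. The share of all genes called was 0.937% in *Lepr*+ OP-like, 0.198% in *Lepr*+ MSC-like and 0.0173% in proliferating preOB-like cells and 0 in the other 7, and between 0 and 3 members per type had an unadjusted p under 0.05. DESeq2 called none of them either. With the block, besides the 2 genes in *Lepr*+ OP-like cells, *Atp5k* was called in haematopoietic progenitor-like cells (−0.54, adjusted p = 0.0309, 0.153% of all genes called). In haematopoietic progenitor-like cells the 95 genes made up 2.34, 2.25, 2.24 and 2.20% of UMIs in the 4 controls and 2.15, 1.97, 2.10 and 2.02% in the 4 mutants, a set of values without overlap. GPC markers in these cells summed to 308 to 368 CPM in controls and 163 to 254 CPM in mutants at 7 weeks. At 13 weeks they summed to 421 to 796 CPM and 180 to 393 CPM, with 0 of 12 called, and their part was not tested. The median log2 difference there was −0.126, with 10 of 90 tested genes positive, against −0.0027 for all genes. Proliferating haematopoietic-like cells gave 2.41 to 2.49% in controls and 2.16 to 2.30% in mutants. No member's genotype difference was itself called different between 7 and 13 weeks in any type by edgeR or DESeq2, with at most 1 per type at an unadjusted p under 0.05, and edgeR called 0% of all genes.

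**Figure D4:**
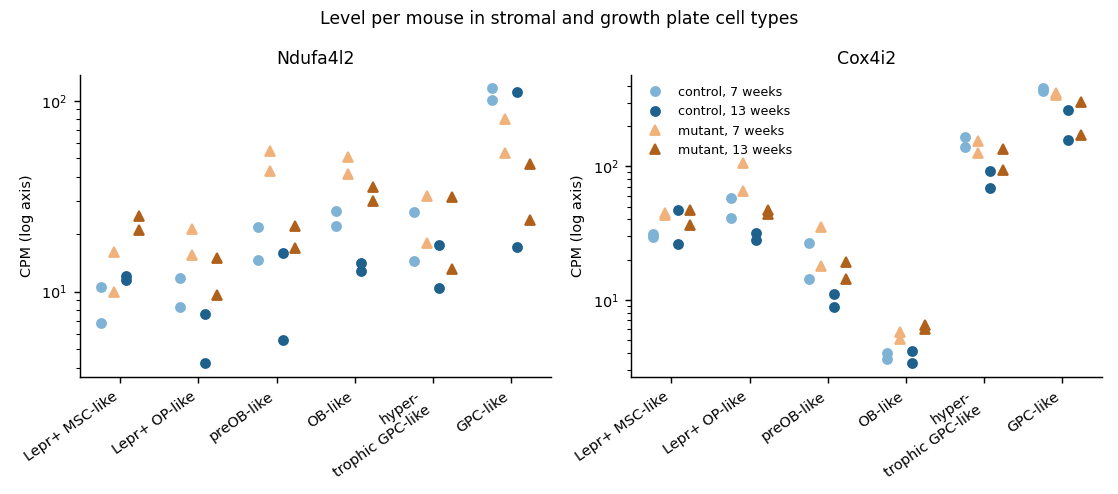
Level of *Ndufa4l2* and *Cox4i2* per mouse, in CPM on a log axis, for controls and mutants at 7 and 13 weeks in the osteoblast lineage and the growth plate types. In OB-like cells the 4 mutants lay between 29.9 and 50.5 CPM for *Ndufa4l2*, all above the controls at 12.9 to 26.3 CPM.

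With age, the summed level of the chain in hypertrophic GPC-like cells was lower in each 13-week mouse than in any 7-week mouse. Mice of 13 weeks were compared with mice of 7 weeks, the genotypes averaged, with 4 mice per age. In hypertrophic GPC-like cells the 95 genes made up 1.71, 1.71, 1.69 and 1.57% of UMIs in the 7-week mice, controls before mutants, and 1.31, 1.43, 1.47 and 1.29% in the 13-week mice. The ages did not overlap. Of 91 tested genes 6 fell and none rose; these 6.59% lie below the 7.56% of all genes called, so the count itself is no result about the chain. There, 38 of the 91 had an unadjusted p under 0.05, and the share of all genes at that cut is not given here. The median log2 difference was −0.288, with 9 genes positive, against 0.0007 for all genes. With library size alone the median was −0.319 against −0.0315 for all genes. That fit called 9 genes of the chain, and its share of all genes called is not given here. By complex the medians were −0.458 for II, −0.376 for III, −0.334 for V, −0.277 for I and −0.186 for IV. With the replicate number as a block, 28 of the 91 fell (17.0% of all genes called).

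*Uqcrc1*, a core subunit of complex III, was at 72.2, 65.5, 63.0 and 62.5 CPM at 7 weeks and 38, 44.9, 40.4 and 42.5 CPM at 13 weeks in hypertrophic GPC-like cells (−0.64, SE 0.131, adjusted p = 0.0113). *Ndufs4*, an accessory subunit of complex I, went from 69.5, 97.4, 74.2 and 91.8 CPM to 42.6, 63.3, 48.4 and 42.6 CPM (−0.73, adjusted p = 0.0207), and *Ndufa9*, of the same complex, from a mean of 42.1 to 28.4 CPM (−0.53, adjusted p = 0.0462). Neither had overlapping ages. In complex V, *Atp5k*, whose product lies in the membrane part of the synthase, fell from 270, 145, 190 and 149 CPM to 135, 113, 106 and 90.2 CPM (−0.73, adjusted p = 0.0265). In complex IV, *Cox6a1* fell from a mean of 298.8 to 205 CPM (−0.51, adjusted p = 0.0432) and *Cox4i2* by 0.58 on the log2 scale (adjusted p = 0.0445). *Cox4i2* was the one with overlap, 125 to 167 CPM at 7 weeks and 68.9 to 135 CPM at 13 weeks. Leaving out 1 mouse left between 0 and 9 genes called, with 0 in the fits without replicate 1 of the 13-week controls or either 13-week mutant, and 2 in those without replicate 2 of the 7-week controls or mutants. Markers moved too. Those of the cell type summed to 36760 to 45320 CPM at 7 weeks and 22720 to 30080 CPM at 13 weeks (2 of 10 called). Pericyte markers summed to 299.8 to 327 CPM and 139 to 264 CPM, without overlap and with 2 of 12 called, and 2 of 12 endothelial markers were called. Their part in these differences was not tested.

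GPC-like cells gave a median of −0.24 over 93 genes, with 12 positive, against 0.0028 for all genes. Their summed level was 1.817 to 2.025% of UMIs at 7 weeks and 1.482 to 1.793% at 13 weeks, also without overlap. None of the 93 was called by edgeR, where 3.67% of all genes were. An unadjusted p under 0.05 was found for 28, and the share of all genes at that cut is not given here. DESeq2 called 3, and its share of all genes called is not given here. The fit with the replicate block called 6, where it called 7.9% of all genes. Their GPC markers summed to 62470 to 72970 CPM at 7 weeks and 52080 to 65050 CPM at 13 weeks, with 0 of 12 called. Hypertrophic GPC markers went from 3565 to 5576 CPM to 2305 to 4146 CPM, with 4 of 10 called, and 3 of 12 pericyte markers were called, at 80 to 132 CPM and 69.4 to 84.1 CPM. Endothelial markers went from 23.2 to 63.9 CPM to 18.4 to 20.9 CPM, without overlap and with 1 of 12 called. Their part in these differences was not tested. The number called in GPC-like cells moved in the fit without replicate 2 of the 13-week controls, and the share of all genes called in that fit is not given here.

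In the osteoblast lineage the medians lay on the other side and *Ndufa4l2* fell. The summed level of the chain in OB-like cells was 1.484 to 1.537% of UMIs at 7 weeks and 1.548 to 1.771% at 13 weeks. In preOB-like cells it was 1.678 to 1.775% and 1.824 to 1.891%, and neither type had overlapping ages. In OB-like cells the median over 94 genes was 0.121, 83 of them positive and none called higher (1.89% of all genes called), and *Ndufa4l2* was the 1 gene called, lower by 0.67 at 13 weeks (SE 0.107, adjusted p = 0.0168). That call was lost without replicate 1 of the 13-week controls or replicate 2 of any other group (−0.59 to −0.66, adjusted p up to 0.0673). In preOB-like cells the median was 0.168 over 92 genes, and *Ndufa4l2* was again the 1 gene called (−1.16, SE 0.244, adjusted p = 0.0103, 3.59% of all genes called). Without replicate 1 of the 13-week controls it was −0.72 and without replicate 1 of the 13-week mutants −1.04, neither called. Markers of other cells moved with age too. In preOB-like cells 7 of 15 OB markers were called, their sum being 26860 to 65880 CPM at 7 weeks and 42950 to 90170 CPM at 13 weeks. Pericyte markers summed to 37.1 to 76.2 CPM and 21.8 to 46.1 CPM there (1 of 12 called) and endothelial markers to 39.3 to 55.2 CPM and 17.21 to 33.31 CPM (1 of 12 called). GPC markers summed to 762 to 973 CPM and 1329 to 2349 CPM in preOB-like cells (1 of 12 called) and hypertrophic GPC markers to 227 to 925 CPM and 134 to 192 CPM (1 of 10 called). In OB-like cells endothelial markers summed to 23.6 to 40.2 CPM at 7 weeks and 14.0 to 20.4 CPM at 13 weeks, with 7 of 12 called, and pericyte markers to 50.7 to 59.7 CPM and 39.7 to 59.4 CPM, with 1 of 12 called. The ages overlapped for the OB and both pericyte sums and for none of the others given, and the part of any of these markers in the *Ndufa4l2* differences was not tested. With the replicate block 4 genes were called in preOB-like cells (7.82% of all genes called), 3 of them higher: *Ndufa6* (0.45), *Ndufb7* (0.37) and *Uqcrb* (0.35). In OB-like and preOB-like cells *Ndufa4l2* was thus higher in mutants and lower at 13 weeks.

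In endothelial-like cells *Ndufa4l2* was the 1 of 91 genes called with age (3.09% of all genes called). Its level was 13.9, 10.6, 5.65 and 6.43 CPM at 7 weeks and 21.4, 20.9, 54.8 and 8.68 CPM at 13 weeks (1.6, SE 0.376, adjusted p = 0.0361). The ages overlapped, and replicate 1 of the 13-week mutants was far above the rest. *Rgs5*, the pericyte marker, was at 501, 137, 200 and 78.4 CPM and at 657, 170, 1069 and 147 CPM in the same cells, with its maximum in the same library. Without that library the difference was 0.73 and not called, 5 other fits without 1 mouse also lost the call, and no gene of the chain was called without the 833 cells of the endothelial-like cluster with the most pericyte marker UMIs. With the replicate block *Cox7a2* (0.43) and *Ndufa7* (0.41) were called as well (5.07% of all genes). The summed level of the chain in endothelial-like cells was 1.331 to 1.505% of UMIs at 7 weeks and 1.533 to 1.625% at 13 weeks, without overlap.

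In the other 7 types no member was called with age by edgeR without the replicate block. With it, *Cox4i2* fell in *Lepr*+ OP-like cells, by 0.73 on the log2 scale (adjusted p = 0.00504, 4.13% of all genes called). OB markers there summed to 6336 to 11270 CPM at 7 weeks and 9918 to 20900 CPM at 13 weeks, with 4 of 15 called without the block. Endothelial markers summed to 82.7 to 131 CPM and 41.3 to 69.1 CPM, without overlap and with 0 of 12 called, and the part of either list was not tested. The share of all genes called was 1.2% in *Lepr*+ OP-like, 0.215% in *Lepr*+ MSC-like, 1.5% in proliferating preOB-like and 0.417% in granulocyte- or monocyte-like cells and 0 in pericyte-like, erythroid-like and haematopoietic progenitor-like cells, with 0 to 6 members per type at an unadjusted p under 0.05. DESeq2 called 1 in *Lepr*+ OP-like cells, and its share of all genes called is not given here. Pericyte-like cells had a median of 0.232, with 75 of 88 genes positive, against 0.0047 for all genes. With library size alone the median was 0.109 against −0.0919 for all genes. Without replicate 2 of the 13-week mutants, whose pericyte-like cells had the high OB marker sum, the TMM median was 0.147 with 70 of 88 positive. The median of all genes was then −0.0147. Proliferating preOB-like cells had a median of 0.211, with 66 of 84 positive, against 0.0044 for all genes. With library size alone the median was 0.0323 against −0.177 for all genes. OB markers summed to 8306 to 19660 CPM at 7 weeks and 29200 to 63620 CPM at 13 weeks in these cells, with 10 of 15 called, and 2 of 12 pericyte markers were called, and their part was not tested. The median in *Lepr*+ OP-like cells was 0.0383 against 0.0058 for all genes. With library size alone it was −0.0210 against −0.0543, so the genes stood 0.0325 and 0.0333 above the median gene under the 2 scalings. None of the 13 mt- genes was called with genotype or age in any type by edgeR or DESeq2, and at most 3 per type had an unadjusted p under 0.05.

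**Figure D5:**
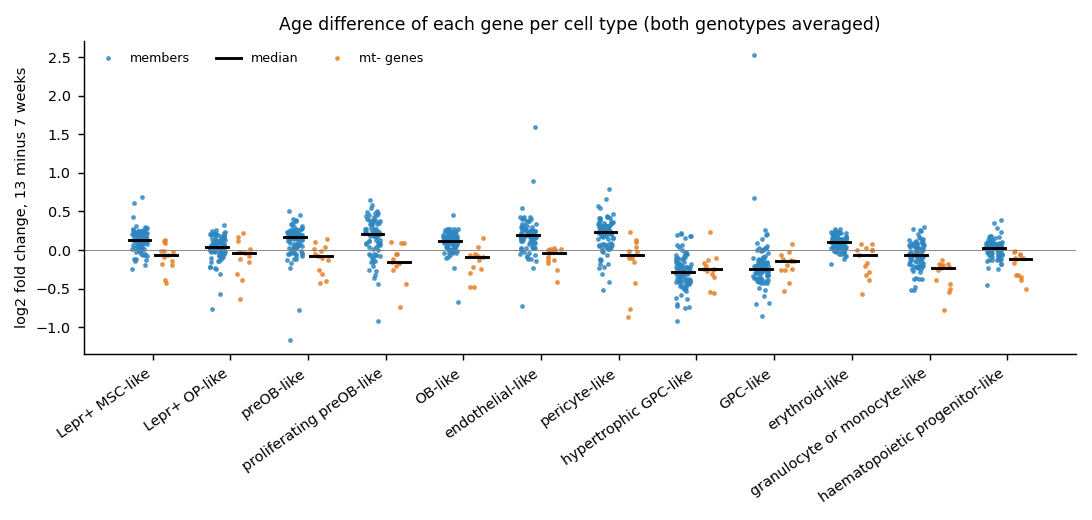
Log2 difference between 13 and 7 weeks of each tested gene of the chain (blue) and each mt- gene (orange), by cell type, with TMM scaling; bars are medians. Hypertrophic GPC-like and GPC-like cells lie mostly below 0 (medians −0.288 and −0.24), and pericyte-like, proliferating preOB-like, endothelial-like and preOB-like cells mostly above (medians 0.232, 0.211, 0.192 and 0.168).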

How the data were processed

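Single-cell 3' libraries were made from 8 mice, 1 library each. The deposited values are raw UMI counts of each gene in each barcode. The submitters' processing notes name Cell Ranger 6.1.2, Seurat 4.3 and the mm10 build. How reads shared with pseudogene copies were counted is not given in the sources used here.

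Barcodes with 200 to 6000 genes and at most 10% mt- UMIs were kept, doublets (9.67 to 11.3% per library) were removed by simulation, and libraries were integrated in Seurat 5.3.0 on 2000 variable genes without any respiratory chain, mt- or SOXC gene (30 components). Leiden clustering (igraph 0.11.9) used resolution 1.5, chosen after the planned resolution of 1 gave no preOB cluster. Clusters with under 33.3% of their libraries' median depth, fewer than 3 markers or under 50 cells stayed unnamed. So did clusters whose leading genes held more markers of another list. UMIs were summed per mouse and type (at least 10 cells), and edgeR 4.0.16 (R 4.3.3; TMM, filterByExpr, quasi-likelihood test, Benjamini-Hochberg adjustment over all genes tested, threshold 0.05) was fitted with 4 group means, or with mouse as a block for steps between types. Group p-values rest on 2 mice per group. Levels are CPM or percent of UMIs; intervals and limits cover counting error only.

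The members and gene lists were chosen with earlier results of these data known. The genes set to be named were the isoform families, 10 core subunits and 4 mt- genes whatever their values. Called members with the largest log2 difference were added, at most 4 per direction in a step and 6 in a group comparison. Not all of the fixed genes are described. *Atp5a1*, *Cox7b*, mt-Nd1 and mt-Atp6 were left out, and *Sdhb* and *Uqcrc1* appear only where they were called. *Ndufaf6*, the genes of the promoter search and those called only with the replicate block were named after their values were seen. On simulated data with 200 genes changed by a log2 of 1, the OB fit (14262 genes) recovered 79.5% and the pericyte fit (7187 genes) 27.0%.

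Replicate numbers come from the labels, which do not say that a number marks a litter; by the study's account each control had a mutant sister, without stating which libraries belong together. Same-numbered samples correlated over 0.1 at both ages in 7 of 12 types (*Lepr*+ MSC, *Lepr*+ OP, OB, hypertrophic GPC, endothelial, erythroid, granulocyte or monocyte; OB 0.555 and 0.565), so the fit with a replicate block is given where it changes a count. For genotype the block was each control and mutant of the same age and number, and for age it was the replicate number. In OB the same numbers also correlated across ages, at 0.311 in controls and 0.295 in mutants, so the correlation is no measure of litter. Alternatives were RLE scaling, no filter, DESeq2 1.42.0, the block, a 5% mt- limit, resolution 1, each mouse left out and, added after seeing the data, library size only and 1 cluster left out.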

Additional observations from a re-analysis of the deposited data

Results flagged for a closer look

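A cluster of 613 cells led by *Col3a1*, *Aspn* and *Postn* scored highest for the *Sca1*+ MSC markers (4.54, with 13 of 15 markers counted), before osteoprogenitor markers (2.79). It stayed unnamed because markers of another list led among its top genes, and it entered no comparison. Its *Ndufa4l2* and *Cox4i2* means in mutants exceeded the highest control mouse. *Ndufa4l2* averaged 87.2 CPM in mutants (12.2 and 18.7 CPM at 7 weeks, 200.2 and 118 CPM at 13 weeks) and 16.9 CPM in controls (29.1, 13.3, 14.3 and 11.0 CPM), from 451 UMIs, so the 7-week mutants lay within the controls and the 13-week mutants above them. *Cox4i2* averaged 31.4 CPM in mutants (28.6, 47.3, 14.8 and 35 CPM) and 14.4 CPM in controls (20.8, 13.3, 4.08 and 19.3 CPM), from 102 UMIs, with overlap. *Rgs5* averaged 3.71 CPM in controls and 2.69 CPM in mutants in these cells. No test was run on this cluster.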

How the results depend on the processing

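Counts below are of respiratory chain genes called. The shares of all genes called stand in the sections above for the replicate block and for library size only in the steps between types. Those under the other settings are not given here, so such counts are no result about the chain. With the replicate block, genotype gave 2 in *Lepr*+ OP-like, 9 in OB-like and 1 in haematopoietic progenitor-like cells (*Atp5k*, −0.54), and age gave 4 in preOB-like (3 of them higher, against 1 lower without the block), 28 in hypertrophic GPC-like, 6 in GPC-like and 3 in endothelial-like and 1 in *Lepr*+ OP-like cells; the block moved no other such count by over 1.5 times. Without the filter on low counts, genotype gave 2 in *Lepr*+ OP-like, 1 in *Lepr*+ MSC-like, 1 in proliferating preOB-like and 1 in GPC-like cells, and age 2 in preOB-like, 1 in *Lepr*+ OP-like, 7 in GPC-like and 1 in granulocyte- or monocyte-like cells. DESeq2 gave 1 with age in *Lepr*+ OP-like and 3 in GPC-like cells, resolution 1 gave 1 in GPC-like cells, and library size only gave 1 in *Lepr*+ OP-like cells. In endothelial-like cells age gave 0 with the 5% mt- limit and 0 without the cluster with the most pericyte marker UMIs.

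Among the steps, library size only gave 53 calls from *Lepr*+ OP-like to preOB-like and 73 from preOB-like to OB-like cells, where most were then lower, and control mice alone gave 32 from *Lepr*+ MSC-like to *Lepr*+ OP-like and 32 from GPC-like to hypertrophic GPC-like cells. Leaving out 1 mouse gave 44 to 53, 80 to 82, 65 to 71, 50 to 59 and 79 to 84 calls in the 5 steps in the order of the report. The same fits gave 1 to 3 calls with genotype in OB-like cells and 0 to 1 in preOB-like cells. With age they gave 0 to 9 in hypertrophic GPC-like and in GPC-like cells, 0 to 2 in preOB-like cells, and 0 to 1 in OB-like, endothelial-like, *Lepr*+ OP-like, proliferating preOB-like and granulocyte- or monocyte-like cells.

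The 5% mt- limit lowered the mt- share by construction, to 3.44% in *Lepr*+ MSC-like cells, 3.84% in preOB-like cells, 3.87% in *Lepr*+ OP-like cells, 3.5% in proliferating preOB-like, 3.48% in OB-like, 3.95% in hypertrophic GPC-like, 4.01% in GPC-like, 3.87% in pericyte-like, 3.47% in endothelial-like and 3.55% in erythroid-like cells. With mt- UMIs left out of the total, the nuclear-encoded genes took up 1.91% in preOB-like, 1.79% in *Lepr*+ OP-like and 2.34% in haematopoietic progenitor-like cells. The causes of the other changes were not tested. Of all such counts and levels, 540 were as reported within 1.5 times or 1 SD, 71 moved and 2 changed their main direction; of the values of single named genes, 622 kept their call and 80 lost it.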

Other observations

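Lymphoid-like cells numbered 347, with at least 10 cells in only 4 mice, and entered no comparison. In these 4 mice the 95 genes took up 2.33 to 2.53% of UMIs and the mt- genes 3.75 to 4.39%. *Atp5g2* made up 49.96% ± 3.97 (SD, n = 4) of *Atp5g* UMIs there, and *Cox6b2* 3.53% ± 3.03 of *Cox6b* UMIs, against 28.4% ± 2.08 (n = 8) in erythroid-like cells.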
